A study of Mus musculus with 28 samples.

Results

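Regulators of G-protein signalling (RGS proteins) carry an RGS domain that speeds GTP hydrolysis by G alpha subunits and so shortens signalling by G-protein-coupled receptors. The 10 genes described here were taken by gene symbol from the 22919 genes of the authors' comparison tables: Rgs2, Rgs3, Rgs4, Rgs5, Rgs8 and Rgs16 (6 genes) form the R4 subfamily, and Rgs6, Rgs7, Rgs9 and Rgs11 (4 genes) the R7 subfamily. All 10 had a mean normalized count above 0, a log2 change in every comparison and an adjusted p-value in every comparison, so no member was lost to a filter on low values.

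Most R4 proteins are small and hold little besides the RGS domain, while Rgs3 is a longer member. The R4 proteins act on Gi/o and Gq family subunits, and Rgs2 is known for its preference for Gq. The R7 proteins are larger, pair obligately with the G beta subunit encoded by Gnb5, and are anchored at membranes by Rgs7bp, Rgs9bp or the orphan receptors Gpr158 and Gpr179. Neurons use both subfamilies to set the speed of inhibitory and modulatory receptor responses, and Rgs2 and Rgs4 are known as genes whose RNA level follows neuronal activity.

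Nascent RNA was sampled with Bru-seq, in which RNA made during a 20-minute pulse of bromouridine is pulled down and sequenced. Cultures of neurons, astrocytes and oligodendrocyte precursors were prepared from the pooled cortices and hippocampi of CD1 mouse embryos at embryonic day 18, and each replicate drew on a group of embryos matched for sex ratio. Lentivirus with a control shRNA (shCtrl) or an shRNA to Rai1 (shRai1) was added on day in vitro 14, and on day 17 the cells had 4 hours of water (vehicle), 1 µM tetrodotoxin (TTX, which blocks sodium channels and action potentials) or 20 µM bicuculline (BIC, which blocks GABA-A receptors and raises network activity). The 16 libraries fell into 6 groups: shCtrl with vehicle (2), TTX (3) and BIC (2), and shRai1 with vehicle (3), TTX (3) and BIC (3).

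The values were summaries over libraries made by the authors, and no value per library was used here. A standard error (SE) below is that of the authors' model and carries the spread between libraries. The depth of each library is unknown. The median gene of the 21192 tested had a mean normalized count of 107, and the members ranged from 18.8 for Rgs5 to 14401 for Rgs7. Rai1 gave no check of the arms at the level of nascent RNA: the authors' deposited table for vehicle lists it 0.16 higher on the log2 scale in shRai1 (SE 0.073, adjusted p 0.357). Under TTX the difference of Rai1 was -0.12 (SE 0.064) and under BIC 0.03 (SE 0.073) in the authors' deposited tables, and neither passed. An shRNA is known to act on RNA that has already been made, so nascent RNA is no test of a knockdown, and the arms are named as labelled. The cultures held neuron markers, with all 8 listed genes at 24.5 FPKM or more in shCtrl vehicle, and all 6 endothelial markers stood below 1 FPKM there.

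In mm9 coordinates, the build named in the submitters' processing notes, 6 of the 10 members lie on chromosome 1 and the others on chromosomes 4, 11, 12 and 17. Rgs8 (chr1:155500167-155544795) and Rgs16 (chr1:155587483-155592598) are 42.7 kb apart with 1 listed gene between them. Rgs5 (chr1:171585632-171623657) and Rgs4 (chr1:171671608-171677773) are 47.95 kb apart with no listed gene between them. Rgs2 (chr1:145846468-145851279) and Rgs7 (chr1:176989207-177422676) stand alone among the members on that chromosome. Rgs3 is at chr4:62220881-62364053, Rgs9 at chr11:109086669-109159495, Rgs6 at chr12:83718025-84259800 and Rgs11 at chr17:26339907-26348269. The genes differ widely in span, from 4.81 kb for Rgs2 to 542 kb for Rgs6 and 433 kb for Rgs7. The interval of Rgs6 is also listed under 1 other name, so its reads are uncertain between the pair.

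The upstream sequences of the 4 members that fell most under TTX are shown, because cyclic AMP response elements (CRE) are a known feature of activity-regulated promoters. Under BIC these members did not move together, and a link between the letters and the responses was not tested. Each is the 250 bases before a gene start in RefSeq annotation of GRCm38.p6, 5′ to 3′ on the gene's strand. Capitals mark the CRE core, TGACG on the strand shown or its complement CGTCA.
Rgs2 (chr1:144004150-144004399, minus strand): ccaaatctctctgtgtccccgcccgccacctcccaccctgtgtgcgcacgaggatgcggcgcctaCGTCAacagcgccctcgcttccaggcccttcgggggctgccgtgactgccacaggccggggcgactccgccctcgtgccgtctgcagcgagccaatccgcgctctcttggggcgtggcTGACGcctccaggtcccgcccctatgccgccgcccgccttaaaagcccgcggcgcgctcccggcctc
Rgs4 (chr1:169747643-169747892, minus strand): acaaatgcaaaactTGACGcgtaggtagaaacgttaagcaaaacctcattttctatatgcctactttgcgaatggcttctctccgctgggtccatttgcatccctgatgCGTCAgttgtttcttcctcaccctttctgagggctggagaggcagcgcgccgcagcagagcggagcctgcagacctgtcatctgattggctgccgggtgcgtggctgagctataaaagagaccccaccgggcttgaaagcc
Rgs8, the first of its listed starts (chr1:153652787-153653036, plus strand): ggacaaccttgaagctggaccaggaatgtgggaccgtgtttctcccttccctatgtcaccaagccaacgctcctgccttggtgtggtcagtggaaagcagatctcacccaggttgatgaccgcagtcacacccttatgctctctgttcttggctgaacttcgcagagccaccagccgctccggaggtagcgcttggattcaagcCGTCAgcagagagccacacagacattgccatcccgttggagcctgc
Rgs16 (chr1:153740103-153740352, plus strand): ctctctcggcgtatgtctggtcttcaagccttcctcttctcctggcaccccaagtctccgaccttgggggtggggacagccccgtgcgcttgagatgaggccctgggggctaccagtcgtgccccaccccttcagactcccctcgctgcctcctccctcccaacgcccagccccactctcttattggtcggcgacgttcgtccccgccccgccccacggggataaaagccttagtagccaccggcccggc

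Rgs2 held the core with first bases 185 and 67 bases before the start, Rgs4 at 236 and 141 bases, and Rgs8 at 46 bases before the first of its 3 listed starts. The other Rgs8 starts held none, and Rgs16 held none in its window. Of the 9 members with a sequence in the table, Rgs2, Rgs4 and Rgs8 (3) had a core, against 19.8% of 27025 genes and 17.8% of all 32851 promoters of the same length. The full element TGACGTCA was in 0 of the 9 members and 1.77% of genes, and the AP-1 site TGANTCA, read on both strands like the others, in 0 of 9 and 7.82% of genes. Of all promoters, 1.55% and 6.75% held them. The core lies within the full element, so matches to the pair are not independent, and a match of letters is a description and not a binding site. Rgs11 is named only.

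In the untreated control arm, transcription per length separated Rgs2 and Rgs4 from the other members. The unit is FPKM, fragments per kilobase of gene scaled to library size, given by the authors as 1 pooled value per condition with a lower and an upper bound. In shCtrl vehicle Rgs2 stood at 134 FPKM (bounds 104 to 165) and Rgs4 at 110 (85.3 to 135), and these bounds overlapped. Rgs8, at 20.9 FPKM (16.1 to 25.7), followed with bounds that did not reach those of Rgs4. Rgs16 at 17.3 FPKM, Rgs7 at 11.8, Rgs3 at 7.77, Rgs9 at 6.77, Rgs11 at 5.11 and Rgs6 at 4.43 came next. Each of these overlapped the gene above it in the order. Rgs5 was lowest at 0.914 FPKM with a lower bound of 0, and its bounds were separate from those of Rgs6.

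**Figure D1:**
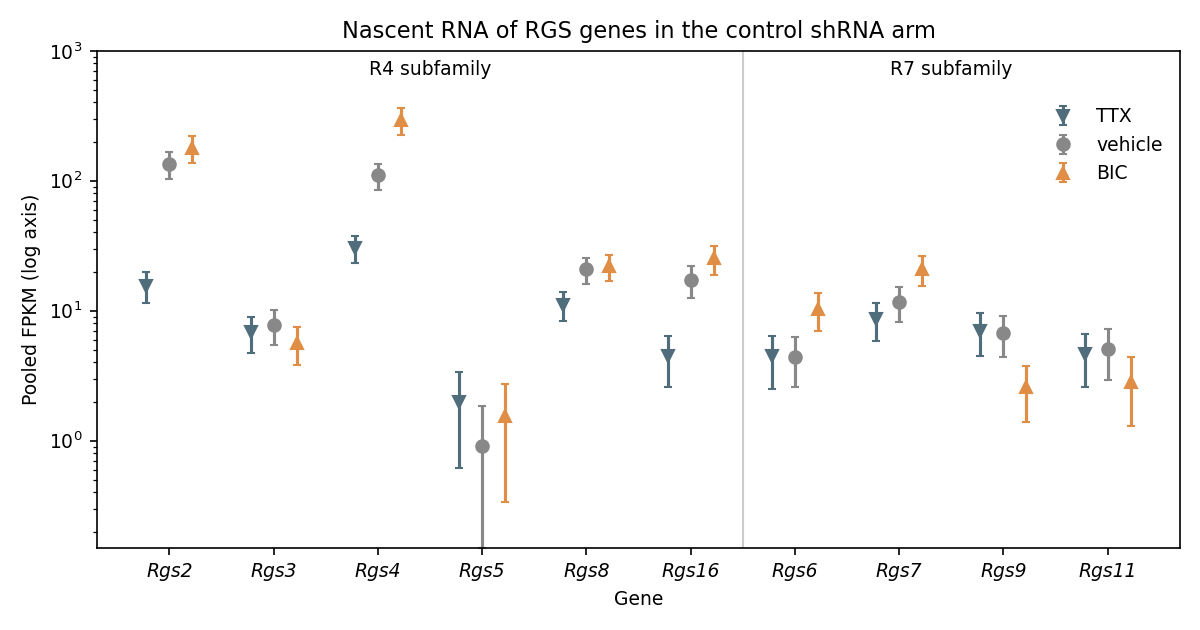
Pooled FPKM of the 10 RGS genes (log axis) in the shCtrl arm under TTX, vehicle and BIC; points are the authors' pooled values and bars the bounds their file gives. Rgs2 and Rgs4 lie above the other members under vehicle at 134 and 110 FPKM, and the vehicle bar of Rgs5 reaches a bound of 0, which a log axis cannot show.

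The drugs reordered the members. Under TTX the shCtrl values were 30.6 FPKM for Rgs4, 15.6 for Rgs2 and 11.1 for Rgs8, so Rgs4 was highest, with bounds above those of Rgs2. Rgs16 dropped to 4.48 FPKM, among Rgs11 at 4.64 and Rgs6 at 4.45, whose bounds it overlapped. Under BIC Rgs4 reached 294 FPKM (223 to 366) and Rgs2 178 (137 to 220), with separate bounds. Rgs16 at 25.2, Rgs8 at 22.0 and Rgs7 at 21.0 FPKM overlapped in turn, and Rgs6 at 10.3 FPKM lay below Rgs7 with separate bounds. Rgs9 had moved from 6.77 FPKM in vehicle to 2.60 in BIC, next to Rgs11 at 2.85 and above Rgs5 at 1.55, all 3 with overlapping bounds.

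Under TTX, 4 of the 6 R4 members fell in both arms, Rgs2 most and Rgs16 next, and no R4 member rose. Rgs4 followed ahead of Rgs8 in shCtrl, and Rgs8 ahead of Rgs4 in shRai1. Among the R7 genes, Rgs7 fell and Rgs9 rose in both arms, by less than 0.5 on the log2 scale. Over the 10 members, 6 were called in shCtrl (5 lower, 1 higher) and 8 in shRai1 (7 lower, 1 higher), at an adjusted p below 0.05 in DESeq2's Wald test with Benjamini-Hochberg adjustment. All tested genes gave 26.7% called in shCtrl (14.9% lower, 11.8% higher) and 30.5% in shRai1 (16.8% lower, 13.7% higher). The 6 called in shCtrl were also called in shRai1, in the same direction. The members' median log2 change was -0.32 in shCtrl and -0.49 in shRai1, beside 0.0024 and 0.0045 over all tested genes.

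Rgs2 encodes an R4 protein that restrains Gq signalling. Its fitted normalized count, which was derived here from the deposited mean and log2 changes and carries no error of its own, was 2368 in shCtrl vehicle and 303 in shCtrl TTX. In shRai1 the fitted counts were 1718 in vehicle and 330 in TTX. The authors' deposited table for shCtrl gives a log2 change of -2.97 (SE 0.107, adjusted p 1.09e-164), 7.83-fold lower. For shRai1 the authors' deposited table gives -2.38 (SE 0.095, adjusted p 4.21e-134), 5.21-fold lower.

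Rgs16, which acts on Gi/o and Gq subunits, had the lowest count of these 4 genes. Its fitted normalized count was 266 in shCtrl vehicle against 60.0 in TTX, and 237 against 58.4 in shRai1. It fell by 2.15 on the log2 scale in the authors' deposited table for shCtrl (SE 0.188, adjusted p 3.68e-28). In shRai1 the fall in the authors' deposited table was of like size, -2.02 (SE 0.171, adjusted p 2.95e-30).

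Rgs4, a regulator of Gi/o and Gq signalling in forebrain neurons, went from a fitted normalized count of 1644 in shCtrl vehicle to 476 in TTX, and from 1261 to 567 in shRai1. Its log2 change was -1.79 in the authors' deposited table for shCtrl (SE 0.122, adjusted p 5.26e-46) and -1.15 in that for shRai1 (SE 0.108, adjusted p 1.14e-24). Rgs8, best known from cerebellar Purkinje cells, had fitted counts of 2515 and 911 in shCtrl and 2420 and 892 in shRai1. The authors' deposited tables give Rgs8 changes of -1.47 (SE 0.098, adjusted p 2.48e-48) and -1.44 (SE 0.086, adjusted p 1.23e-59). The log2 ratio of pooled FPKM for Rgs8 in shCtrl was smaller, -0.91, while those of Rgs2 (-3.10), Rgs4 (-1.85) and Rgs16 (-1.95) lay nearer to the deposited changes.

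The other R4 genes did not pass the test under TTX. Rgs3 had a log2 change of -0.14 in the authors' deposited table for shCtrl (SE 0.105, adjusted p 0.361) and -0.04 in that for shRai1 (SE 0.092, adjusted p 0.822). Rgs5, a marker of pericytes, had a change of -0.16 (SE 0.352, adjusted p 0.806) in the authors' deposited table for shCtrl. Its 95% interval ran from -0.85 to 0.53, so at a mean count of 18.8 the data allowed changes across that range. The pooled FPKM of Rgs5 was 0.914 in vehicle and 2.00 in TTX with overlapping bounds. Of 9 pericyte markers other than Rgs5, 5 had an adjusted p-value and 0 passed DESeq2's test under TTX in either arm. At an unadjusted p below 0.05 there were 0 in shCtrl and 1 in shRai1. Over all tested genes, 26.7% were called in shCtrl and 30.5% in shRai1, and 26.3% and 28.6% had an unadjusted p below 0.05. Among the pericyte markers Kcnj8 and Anpep were listed at 0 FPKM in shCtrl vehicle. Under BIC 0 of the markers passed in shCtrl and 1 in shRai1, where 34.4% and 42.5% of all tested genes were called. That was Pdgfrb at -0.57 in the authors' deposited table (SE 0.167, adjusted p 0.0022, DESeq2's Wald test). The summed FPKM of the pericyte markers was 30.6 in shCtrl vehicle, 33.4 in TTX and 32.4 in BIC. It is no plain level of them, since Higd1b enters it at 4.94 FPKM in vehicle with a mean normalized count of 0.13.

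Of the R7 genes, Rgs7 fell by 0.37 in the authors' deposited table for shCtrl (SE 0.130, adjusted p 0.0198) and by 0.49 in that for shRai1 (SE 0.115, adjusted p 0.0002). Rgs9, the regulator that limits dopamine and opioid receptor signalling in striatum, rose by 0.32 (SE 0.099, adjusted p 0.0069) and 0.26 (SE 0.088, adjusted p 0.0131) in the same arms, per the authors' deposited tables. The log2 ratio of pooled FPKM for Rgs9 under TTX in shCtrl was 0.057, with overlapping bounds. Rgs6, which limits Gi/o signalling at GABA-B receptors, had a change of -0.20 in shCtrl that did not pass (SE 0.107, adjusted p 0.158) and fell by 0.34 in shRai1 (SE 0.094, adjusted p 0.0019), both from the authors' deposited tables. Rgs11, known from retinal bipolar cells, had -0.27 in shCtrl (SE 0.187, adjusted p 0.319) and fell by 0.49 in shRai1 (SE 0.169, adjusted p 0.0148), per the authors' deposited tables. The responses of Rgs6 and Rgs11 were not shown to differ between the arms: the differences were -0.14 (95% interval -0.42 to 0.14) and -0.22 (-0.72 to 0.27).

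**Figure D2:**
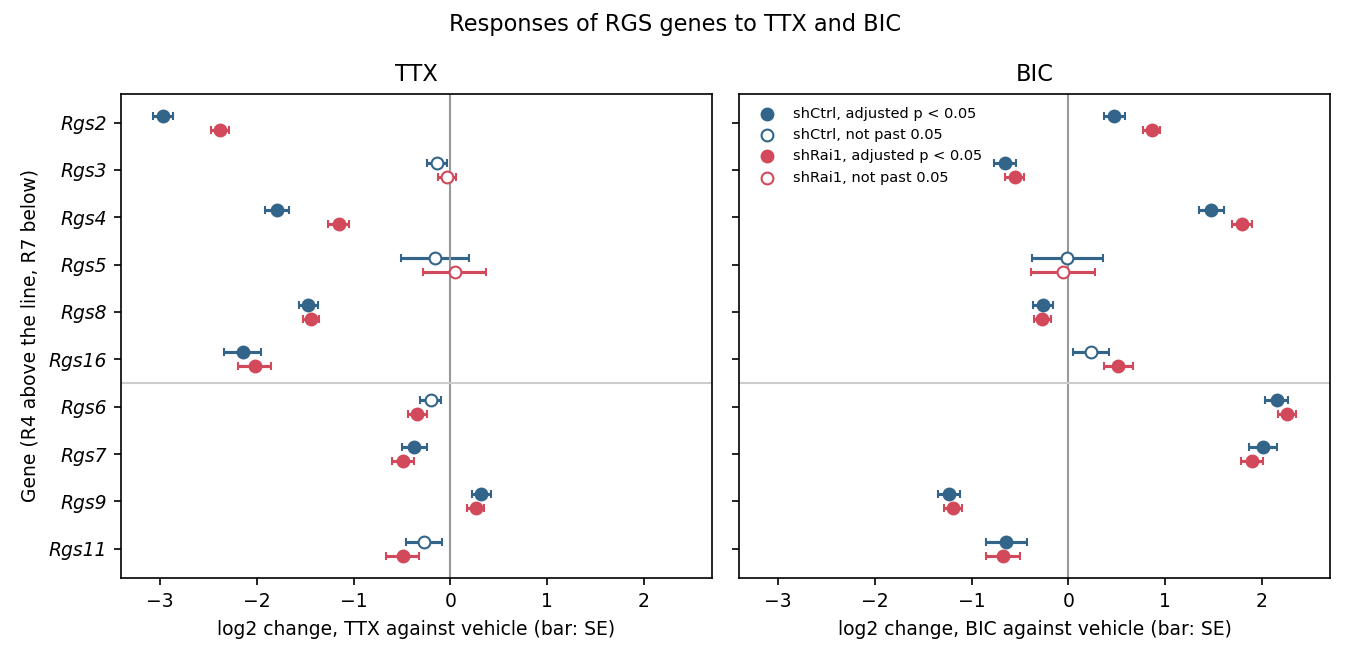
Log2 change of each RGS gene under TTX (left) and BIC (right) against vehicle in the shCtrl and shRai1 arms; bars are SE and filled points have an adjusted p below 0.05. Rgs2, Rgs16, Rgs4 and Rgs8 lie far left under TTX, and Rgs6, Rgs7 and Rgs4 far right under BIC, opposite Rgs9.

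Under BIC all 4 R7 genes changed, in both directions. Rgs6, Rgs7, Rgs4 and Rgs2 rose in both arms, and Rgs9, Rgs3, Rgs11 and Rgs8 fell in both. In shCtrl 8 of 10 members were called (4 higher, 4 lower), and in shRai1 9 of 10 (5 higher, 4 lower). The share of all tested genes called was 34.4% in shCtrl (17.4% higher, 17.0% lower) and 42.5% in shRai1 (21.3% higher, 21.3% lower). Restricted to genes whose mean count was 50 or higher, which covers every member except Rgs5, those shares were 43.6% and 55.7%. The 8 called in shCtrl were also called in shRai1 in the same direction. The members' median log2 change was 0.11 in shCtrl and 0.23 in shRai1, beside -0.019 and 0.0027 over all tested genes.

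Rgs6 and Rgs7 had the largest rises in deposited log2 change, though not in pooled FPKM, where Rgs4 led. The fitted normalized count of Rgs6 was 3427 in shCtrl vehicle and 15210 in BIC, and 3393 and 16243 in shRai1. The log2 change of Rgs6 in the authors' deposited table was 2.15 for shCtrl (SE 0.118, adjusted p 7.07e-71), 4.44-fold higher. For shRai1 it was 2.26 in the authors' deposited table (SE 0.093, adjusted p 1.64e-126). Rgs7, an R7 protein found broadly in brain, had fitted counts of 7986 and 32195 in shCtrl and 8061 and 30024 in shRai1. Its rise was 2.01 in the authors' deposited table for shCtrl (SE 0.144, adjusted p 6.81e-42) and 1.90 in that for shRai1 (SE 0.115, adjusted p 3.27e-59).

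The pooled FPKM of both genes also rose, by less. The log2 ratio of BIC over vehicle FPKM in shCtrl was 1.22 for Rgs6 and 0.84 for Rgs7, and their bounds in vehicle and BIC did not overlap. Both genes are long, and over the 337 genes of 400 kb or more with a mean count of at least 50 the FPKM log2 ratio had a slope of 0.535 on the deposited BIC change, against 0.937 over the 2324 genes shorter than 10 kb. For the short members Rgs2 and Rgs4 the ratios were 0.41 and 1.42, beside deposited changes of 0.47 and 1.48, so by pooled FPKM Rgs4 rose more than Rgs6 and Rgs7. The size of the rise of Rgs6 and Rgs7 thus differed between the authors' files by more than the SE. The part that gene length had in this was not tested.

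Rgs4 rose from a fitted normalized count of 1644 in shCtrl vehicle to 4575 in BIC, and from 1261 to 4381 in shRai1. The authors' deposited tables give Rgs4 log2 changes of 1.48 (SE 0.130, adjusted p 5.55e-28) and 1.80 (SE 0.104, adjusted p 2.36e-65). Rgs2 rose less, by 0.47 in the authors' deposited table for shCtrl (SE 0.109, adjusted p 8.52e-05) and 0.86 in that for shRai1 (SE 0.086, adjusted p 2.40e-22). Its fitted counts were 3289 in shCtrl BIC and 3122 in shRai1 BIC. Rgs16 had 0.23 in shCtrl, which did not pass (SE 0.181, adjusted p 0.349), and rose by 0.52 in shRai1 (SE 0.147, adjusted p 0.0015), per the authors' deposited tables. The difference between the arms for Rgs16 was 0.28, with a 95% interval of -0.17 to 0.74.

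Rgs9 was the member that fell most under BIC. Its fitted normalized count was 1095 in shCtrl vehicle, 1366 in TTX and 466 in BIC, and 977, 1172 and 427 in shRai1. The log2 change of Rgs9 under BIC was -1.23 in the authors' deposited table for shCtrl (SE 0.117, adjusted p 3.38e-24) and -1.19 in that for shRai1 (SE 0.095, adjusted p 9.62e-35). The cultures came from cortices and hippocampi, and whether they also held striatal projection neurons was not tested. Genes listed as markers of that cell type moved in part with Rgs9. Of 9 such markers other than Rgs9, 5 fell and 1 rose under BIC in shCtrl, and 5 fell and 3 rose in shRai1, where 34.4% and 42.5% of all tested genes were called. Their median log2 change under BIC was -1.16 in shCtrl and -1.12 in shRai1. Under TTX 5 rose and 2 fell in each arm, where 26.7% and 30.5% of all tested genes were called, with a median log2 change of 0.37 in shCtrl and 0.40 in shRai1. Their summed level in shCtrl was 281 FPKM with vehicle, 241 with TTX and 204 with BIC, a sum in which Penk alone went from 90.5 with vehicle to 12.8 with TTX. None was below 4.84 FPKM in vehicle. Their part in the change of Rgs9 was not tested, and in bulk cultures fewer cells of a type and less RNA per cell cannot be told apart.

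Among the other falls under BIC, Rgs3, a longer R4 member, changed by -0.65 in shCtrl (SE 0.118, adjusted p 3.14e-07) and -0.56 in shRai1 (SE 0.094, adjusted p 2.09e-08), per the authors' deposited tables. Rgs11 fell by 0.64 in shCtrl (SE 0.211, adjusted p 0.0091) and by 0.67 in shRai1 (SE 0.174, adjusted p 0.0004), per the authors' deposited tables. Rgs8 fell by 0.26 in the authors' deposited table for shCtrl (SE 0.107, adjusted p 0.0423) and by 0.27 in that for shRai1 (SE 0.084, adjusted p 0.0048). The shCtrl call of Rgs8 was lost when the adjustment covered all tested genes (adjusted p 0.0536) and when changes were centred on the median gene (adjusted p 0.103). Its log2 FPKM ratio in shCtrl was 0.08. Rgs5 had changes of -0.01 (SE 0.366, adjusted p 0.987) and -0.06 (SE 0.330, adjusted p 0.924), per the authors' deposited tables, and neither passed.

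**Figure D3:**
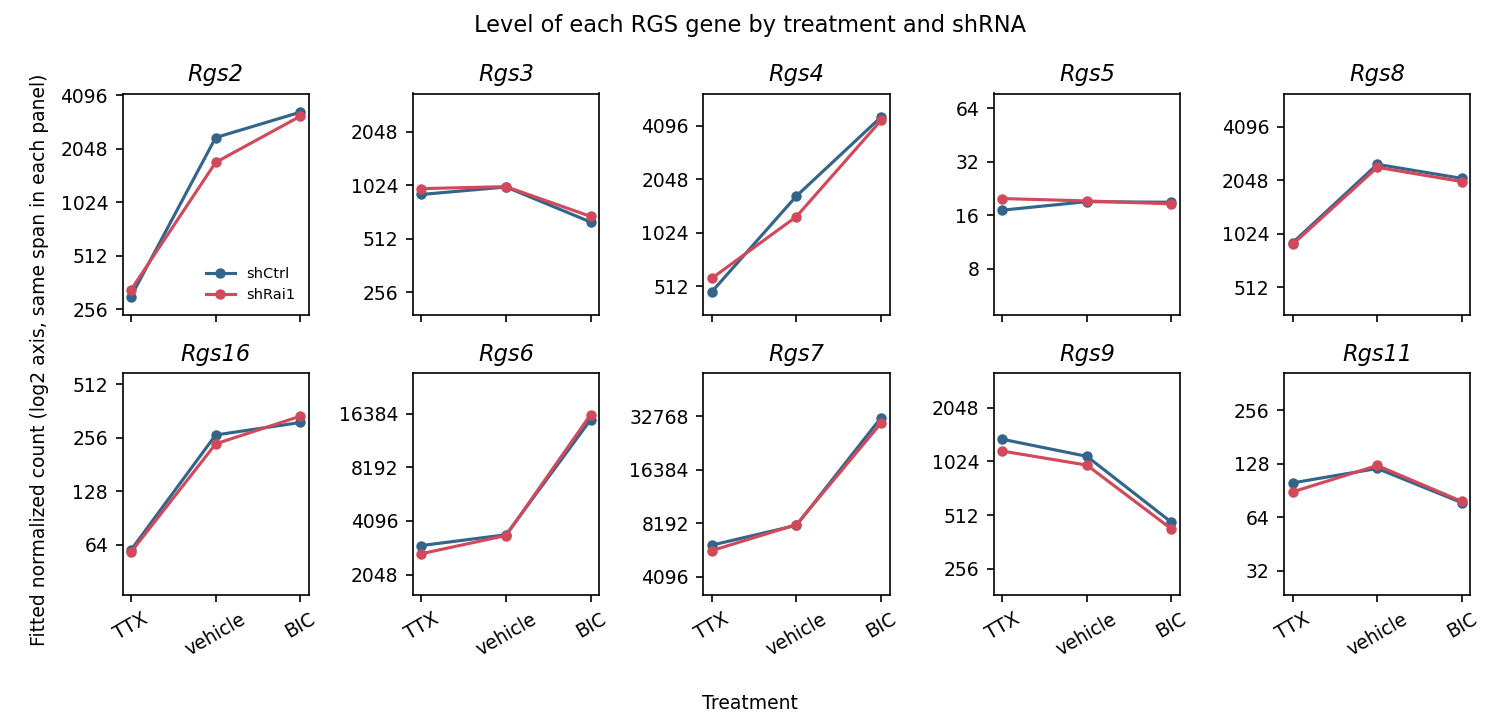
Fitted normalized count of each RGS gene (log axis) in the 6 groups, derived from the deposited mean count and log2 changes, with no error bars because no value per library was used. Rgs2 goes from 2368 in shCtrl vehicle to 303 in TTX and 3289 in BIC, while Rgs9 is lowest in BIC at 466.

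The members thus had unlike profiles across the 3 activity states, and BIC was compared with TTX to order the levels. The difference was computed here from the deposited changes, and its SE is an upper limit because both changes share the vehicle libraries. In each arm 8 members differed between BIC and TTX (6 higher in BIC, 2 lower), against 32.4% of 18241 genes in shCtrl (17.1% higher, 15.3% lower) and 39.5% in shRai1 (20.3% higher, 19.3% lower). Rgs2 was 10.9-fold and Rgs4 9.61-fold higher in BIC than in TTX in shCtrl, with log2 differences of 3.44 (SE at most 0.153) and 3.26 (SE at most 0.179). Rgs7 (2.38), Rgs16 (2.38), Rgs6 (2.35) and Rgs8 (1.20) were also higher in BIC in shCtrl, and Rgs9 (-1.55) and Rgs3 (-0.52) lower. Rgs5 and Rgs11 did not pass in either arm.

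For Rgs2, Rgs16 and Rgs8 the fall under TTX was the larger move from vehicle, and for Rgs6 and Rgs7 the rise under BIC. Rgs4 moved by like amounts both ways in shCtrl, -1.79 under TTX and 1.48 under BIC in the authors' deposited tables, and in shRai1 by -1.15 and 1.80. The neighbours on chromosome 1 can be set side by side. Rgs16 and Rgs8 fell together under TTX, while under BIC in shRai1 Rgs8 fell by 0.27 and Rgs16 rose by 0.52 in the authors' deposited table. In shCtrl Rgs16 did not pass under BIC, and the call of Rgs8 there was lost under the alternatives given above. Rgs4 was called in all 4 drug responses and its neighbour Rgs5 in none.

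The Rai1 shRNA changed few members. In vehicle Rgs2 was lower in shRai1 by 0.46 on the log2 scale in the authors' deposited table (SE 0.098, adjusted p 0.0018), 1.38-fold. Rgs2 was the 1 member called, where 0.857% of tested genes were called (0.730% lower). Rgs4 had -0.38 in the authors' deposited table (SE 0.118, unadjusted p 0.0012, adjusted p 0.0917) and did not pass at 0.05. The other 8 members had changes between -0.17 (Rgs16) and 0.06 (Rgs11) in the authors' deposited table, with adjusted p-values of 0.566 or more. The widest of their 95% intervals was that of Rgs5, from -0.67 to 0.69, and the narrowest that of Rgs8, from -0.24 to 0.13.

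Under TTX and under BIC no member was called as different between the arms. DESeq2's Wald test called 0 of 10 under TTX, where 0.0283% of tested genes were called. Unadjusted p-values were below 0.05 for 3.30% of all genes and for 2 members. These were Rgs4, with 0.25 in the authors' deposited table (SE 0.112, unadjusted p 0.0249), and Rgs9, with -0.22 (SE 0.087, unadjusted p 0.0115). Under BIC 0 of 10 were called, where 0.00944% of tested genes were. There 0 members had an unadjusted p below 0.05, against 2.93% of all genes. For Rgs2 the authors' deposited tables give 0.13 under TTX (95% interval -0.08 to 0.33) and -0.08 under BIC (-0.26 to 0.11).

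**Figure D4:**
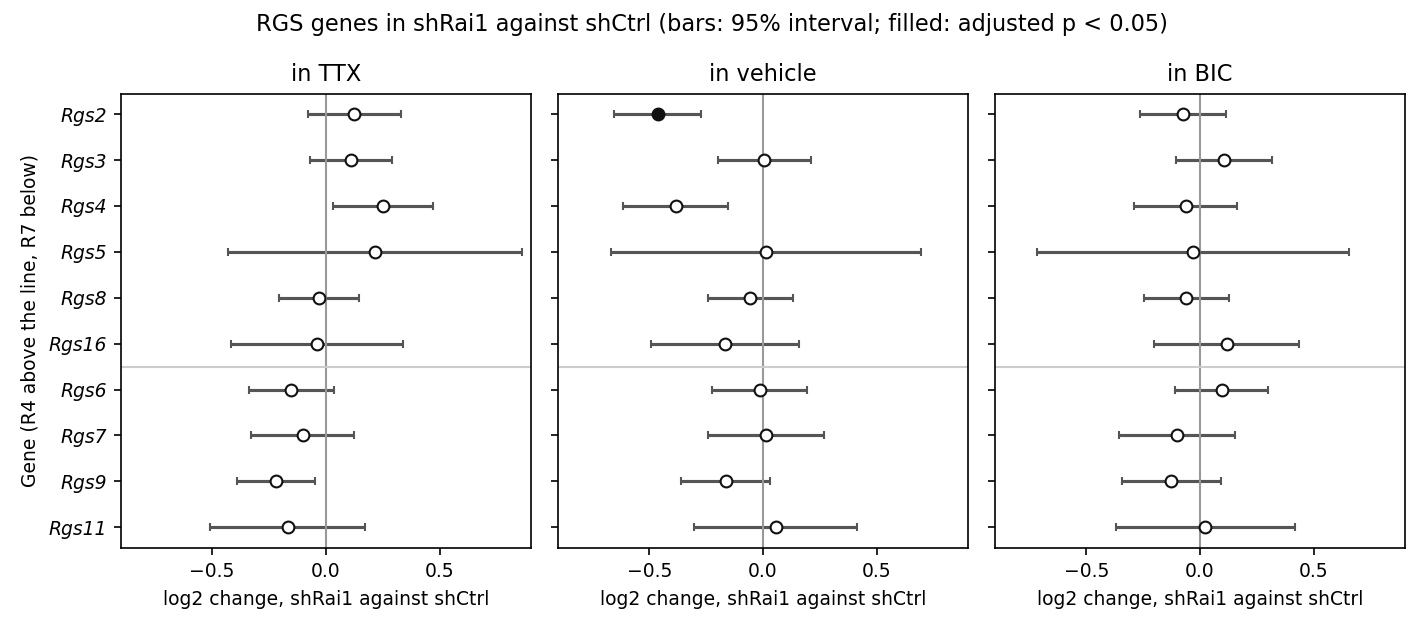
Log2 difference of shRai1 from shCtrl for each RGS gene under vehicle, TTX and BIC. Bars are 95% intervals, and the filled point has an adjusted p below 0.05. Rgs2 in vehicle, at -0.46, is the filled point.

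The TTX responses of Rgs2 and Rgs4 differed between the arms. The shRai1 response less the shCtrl response was 0.59 for Rgs2 (SE 0.143, adjusted p 0.0109) and 0.64 for Rgs4 (SE 0.163, adjusted p 0.0186), in a Wald test computed here with Benjamini-Hochberg adjustment over 18241 genes. A positive difference means a smaller fall in shRai1. The 2 members called, both higher, stand beside 0.943% of genes called (0.587% higher). The differences of the other 8 members lay between -0.22 (Rgs11) and 0.20 (Rgs5), with adjusted p-values of 0.907 or more. These differences use the same vehicle libraries as the knockdown in vehicle, where Rgs2 and Rgs4 had the lowest values of the members, so they are not separate evidence of it. The shCtrl vehicle group, which enters each of them, holds 2 libraries.

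For BIC the same difference called 0 of 10 members, where 0.0219% of genes were called. Unadjusted p-values were below 0.05 for 2.66% of all genes and for 1 member. That was Rgs2 at 0.39 (SE 0.139, unadjusted p 0.0052), and Rgs4 had 0.32 (95% interval -0.01 to 0.65). Another marker group moved in the same libraries. Of 8 markers of oligodendrocyte precursors, 4 were lower and 0 higher in shRai1 under vehicle in the authors' deposited table, with a median log2 change of -0.76, where 0.857% of all tested genes were called (0.730% lower). Of those 8 markers, 6 had a TTX response that was higher in shRai1 than in shCtrl, with a median difference of 1.13, where 0.943% of genes were called (0.587% higher). Under TTX itself, 4 of the 8 fell and 1 rose in shCtrl, and 5 rose in shRai1, while the 4 R4 genes fell in both arms. Over all tested genes, 14.9% were lower and 11.8% higher under TTX in shCtrl, and 13.7% higher in shRai1. Their summed level in shCtrl was 191 FPKM with vehicle, 163 with TTX and 189 with BIC. The part of these cells in the Rgs2 and Rgs4 differences was not tested.

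The genes nearest to each member in response were sought among the 16118 genes averaging 0.5 FPKM or more, by Euclidean distance over the 4 deposited log2 changes, for the 5 members called in all 4. Nearest to Rgs2 were Rnd3 (distance 0.46), Penk (0.48) and Fosb (0.60). Nearest to Rgs4 were Opn3 (0.23), Cort (0.33) and Nfil3 (0.37), and nearest to Rgs8 Gfpt2 (0.21), Per1 (0.25) and Idi1 (0.28). Rgs7 had Hsf2bp (0.09), Ccdc138 (0.28) and Gm10406 (0.28), and Rgs9 had Kdm2b (0.13), Fbxo16 (0.13) and Zbtb18 (0.13). No member was among the nearest genes of another. A small distance is a likeness over 4 values that share vehicle libraries within an arm.

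Among 11 other RGS-domain genes, 3 fell and 0 rose under TTX in each arm, and 3 rose and 2 fell under BIC in each arm. The shares called over all tested genes were 26.7% and 30.5% for TTX and 34.4% and 42.5% for BIC, in shCtrl and shRai1. Their median log2 change was -0.30 under TTX and 0.07 under BIC in shCtrl, beside 0.0024 and -0.019 over all tested genes. The BIC median is the value of Rgs1, which had a mean normalized count of 0.64 and no adjusted p-value there. The summed level of the 11 genes in shCtrl was 69.5 FPKM with vehicle, 73.7 with TTX and 86.4 with BIC. Rgs10, a small RGS protein acting on Gi/o, fell under TTX by 0.64 in shCtrl and 0.99 in shRai1, and rose under BIC by 1.11 and 1.13, in the authors' deposited tables. Rgs20, of the RZ subfamily, changed by -0.69 and -0.60 under TTX and by 0.83 and 0.81 under BIC in the authors' deposited tables. The pooled FPKM of Rgs20 in shCtrl went the other way under TTX, from 33.3 to 40.8, and was 48.6 under BIC. Rgs17, also of the RZ subfamily, rose under BIC by 1.16 and 1.28 in the authors' deposited tables. The pooled FPKM of Rgs17 in shCtrl rose less, from 8.86 with vehicle to 14.0 with BIC. Rgs14 changed under BIC by -1.99 in shCtrl and -1.68 in shRai1, and Rgs19 by -0.93 and -0.81, per the authors' deposited tables. Rgs13, a gene of low count that lies next to Rgs2 at 134.5 kb, fell by 1.17 under TTX in shCtrl, and Rgs12 by 0.28 in shRai1, in the authors' deposited tables.

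The binding partners of the R7 proteins were counted likewise. Under BIC 2 of 5 rose and 1 fell in each arm, where 34.4% (shCtrl) and 42.5% (shRai1) of all tested genes were called. Under TTX 3 fell and 0 rose in each arm, where 26.7% and 30.5% were called. The membrane anchor Rgs7bp rose under BIC by 1.03 in shCtrl (SE 0.118) and 1.32 in shRai1 (SE 0.093) in the authors' deposited tables. The receptor Gpr158 rose by 1.66 (SE 0.105) and 1.65 (SE 0.083) in the authors' deposited tables. The pooled FPKM of Gpr158 in shCtrl rose less, from 10.6 with vehicle to 21.1 with BIC. Gnb5, whose protein every R7 member needs, fell instead, by 0.48 (SE 0.097) and 0.50 (SE 0.076) under BIC and by 0.43 (SE 0.086) and 0.57 (SE 0.076) under TTX in the authors' deposited tables. The median of the 5 partners under BIC was 0.20 in shCtrl and -0.21 in shRai1, and in both it is the value of Gpr179, a gene of low count that did not pass (adjusted p 0.770 and 0.740 in the authors' deposited tables).

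Upstream and downstream of the RGS proteins, the responses went both ways. Of 15 G alpha genes, 0 rose and 2 fell under TTX and 2 rose and 4 fell under BIC in shCtrl. Gnai1 had -0.39 under TTX and 0.42 under BIC in the authors' deposited tables, while its pooled FPKM was 18.5 with vehicle, 15.8 with TTX and 16.7 with BIC, below vehicle under both drugs. Of 17 effector genes, 3 rose and 4 fell under TTX and 4 rose and 6 fell under BIC in shCtrl. The adenylyl cyclase gene Adcy8 changed by -1.37 and 1.17 in the authors' deposited tables, and the potassium channel gene Kcnj6, for a channel opened by G beta gamma, by 0.43 and 1.43. Of 27 receptor genes, 5 rose and 8 fell under TTX and 9 rose and 10 fell under BIC in shCtrl. The serotonin receptor gene Htr2a, which signals through Gq, changed by -1.11 under TTX and 1.73 under BIC, and the dopamine receptor gene Drd2 by 0.37 and -2.34, in the authors' deposited tables. The shares called over all tested genes were 26.7% for TTX and 34.4% for BIC in shCtrl. For shRai1 against shCtrl, DESeq2's test called 0 of the 75 measured genes of these 5 lists under vehicle, TTX or BIC, where 0.857%, 0.0283% and 0.00944% of all tested genes were called. Of the 75, 11, 4 and 2 had an unadjusted p below 0.05. Over all genes with a p-value, 8.17%, 3.30% and 2.93% were below 0.05 unadjusted. For the difference of TTX responses between the arms, 1 of the 75 was called (0.943% of all genes), Chrm4 at -0.66 (SE 0.168, adjusted p 0.0183, the Wald test computed here), and 13 had an unadjusted p below 0.05, against 7.84% of all genes.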

How the data were processed

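Bru-seq was analysed from 16 libraries in 6 groups, and 12 ChIP-seq samples were not analysed here. The submitters' processing notes name TopHat2 2.1.0, Bowtie2 2.2.6, DESeq2 and the mouse build mm9, without a role or order. The authors deposited 7 comparison tables with a mean normalized count (a signal averaged over libraries), a log2 fold change, its SE, a Wald statistic (a score) and the p-values before and after adjustment, per the file headers. The authors also deposited 1 table of pooled FPKM over the full gene length with bounds, 1 value per condition, per its headers and name.

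The comparison of shRai1 with shCtrl under vehicle lists no gene names. Rows were given names by a unique mean count, which named 20107 and left 1085 unnamed (mean count at most 0.306), and the members' log2 changes closed with the other tables to within 1e-09. The knockdown FPKM columns entered only the mean over 6 conditions, because the one named TTX over the untreated one had a correlation across genes of -0.63 with the TTX response in shRai1.

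Differences between 2 deposited log2 changes were computed here with the root of the summed squared SEs, and tested with a two-sided Wald test and Benjamini-Hochberg adjustment over the 18241 named genes averaging 0.1 FPKM or more. Calls have an adjusted p below 0.05. On simulated data with 200 changed genes of 18241 (log2 size 1), 88.5% were recovered with 6 false calls for the TTX interaction and 83.5% with 10 for the BIC interaction. For BIC against TTX 82.0% were recovered in shCtrl and 91.0% in shRai1, with 0 false calls in each. The changed genes were drawn from those with a mean count of at least 50. The noise was drawn with the deposited SEs and tested with the same SEs. The simulation therefore checks the arithmetic, and it cannot show whether SEs estimated from so few libraries are right.

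The labels call the replicates biological, each from pooled embryos, and the p-values measure the spread between these libraries as the authors modelled it. The log2 changes are those of the authors' fit, which may pull the changes of low genes toward 0. Named genes are all 10 members, Rai1, called genes of the first pathway lists and the 3 nearest genes. Rgs9bp is also named as an R7 anchor, and Rgs1 and Gpr179 as genes that set a list's median, though none was called. The members, lists and tests were chosen with earlier results of these data known. Genes of the other lists were picked as examples after their values were seen. Python 3.11.15, pandas 2.3.3, NumPy 2.4.6 and SciPy 1.17.1 were used.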

Additional observations from a re-analysis of the deposited data

Results flagged for a closer look

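The TTX response differed between the arms for 2 members, by a test of the difference itself. Rgs2 fell less under TTX in shRai1 than in shCtrl, by 0.59 on the log2 scale (SE 0.143, adjusted p 0.0109, Wald test with Benjamini-Hochberg adjustment). Rgs4 fell less by 0.64 (SE 0.163, adjusted p 0.0186, the same test). Both differences include the shCtrl vehicle group of 2 libraries, and no value per library was used, so the number of libraries that show the direction is unknown. Over the alternatives tried, the adjusted p ranged from 0.0076 to 0.0127 for Rgs2 and from 0.0133 to 0.0216 for Rgs4.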

How the results depend on the processing

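Replicate numbers recur across the groups: shCtrl vehicle holds 1 and 2, shCtrl BIC 2 and 3, and the other groups 1 to 3. No paired analysis was possible because the values are summaries over libraries, and for the same reason no library could be left out. Other adjustments, thresholds and a centring on the median gene gave 66 alternatives for the 11 counts of called members, of which 64 stayed within 1.5 times. At a threshold of 0.1 the knockdown in vehicle called 2 members, Rgs2 and Rgs4. At 0.01 the difference of TTX responses called 0, so its 2 calls did not hold there. The Wald test with Benjamini-Hochberg adjustment gave 0.0109 for Rgs2 and 0.0186 for Rgs4. Of 649 alternatives for single members, 639 kept their direction and side of the threshold, 8 lost the call and 1 gained it. The change of Rgs5 under BIC in shCtrl turned from -0.01 to 0.032 when centred, with no call in either. The call of Rgs8 under BIC in shCtrl depended on the genes adjusted over and on centring. Centring shifted changes by at most 0.044. Of 40 alternatives for pooled FPKM ratios, 4 moved by more than the SE of the deposited change, all at a pseudocount of 1 FPKM. These were Rgs5 (0.65) and Rgs16 (-1.74) under TTX and Rgs6 (1.06) and Rgs9 (-1.11) under BIC. Rgs5 under BIC, whose SE is 0.366, went from 0.76 to 0.41. Depth limits Rgs5 most, at a mean normalized count of 18.8.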
